A study of Glycine max with 21 samples.

Results

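The genes described here are 6 soybean gene models of HD-Zip subfamily II: Glyma15g18320, Glyma13g00310, Glyma02g28860, Glyma03g30200, Glyma11g03850 and Glyma08g15780. They were selected on the measured values described here, because salt or dehydration changed their read counts against control in these libraries, 5 of them through salt and Glyma08g15780 through dehydration. They are 6 of the 24 HD-Zip II genes, and of the 101 HD-Zip genes, that the study listed, within 62537 gene models in the deposited tables. The samples were roots of cv. Williams 82 seedlings at the first trifoliolate stage, grown on germination paper. In salt stress the seedlings were moved to 100 mM NaCl, and in dehydration the seedlings were taken from the paper and left in air, each for 1, 6 or 12 hr. Control roots were unstressed and were sampled at 0 hr only. Each of the 7 groups had 3 libraries, which the study calls biological replicates without saying how many plants each holds, so that 21 libraries were compared. Because no unstressed roots were sampled at later hours, stress and hours since the start, with the hour of the day, cannot be told apart in any comparison with control. All groups were 1 cultivar.

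HD-Zip proteins are plant transcription factors that join a DNA-binding homeodomain to a leucine zipper, through which they bind DNA as dimers. Subfamily II proteins also carry a short cysteine-containing CPSCE motif near the carboxy terminus. In Arabidopsis the subfamily is best known for ATHB2, a gene induced by shade, and HAT22 of the same subfamily is induced by water stress. Many soybean genes occur as homoeologs, copies that remain from duplications of the whole genome. Glyma15g18320 and Glyma13g00310 were assigned by the study to a pair left from the duplication in an early legume, and Glyma08g15780 to the orthologs of the rice drought-response genes Oshox11 and Oshox27.

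The libraries held 3752853 to 28177205 uniquely mapped reads in gene models (median 6956557), and salt at 1 hr replicate 1 was the deepest. Replicates correlated at Spearman's rho of 0.886 to 0.968 across genes, which are not independent replicates. The gene identifiers could not be matched to the annotation used here, so that the root identity of the libraries was not checked against marker genes and no sequence, position or transcript length is given. Levels are therefore in CPM, counts scaled to the total of each library after adjustment by a normalization factor (TMM). Genes of different length cannot be ranked against each other in CPM. In whole roots, fewer cells of a type and less RNA per cell cannot be told apart. A gene was counted as differentially expressed (DE) at an adjusted p under 0.05 by edgeR's quasi-likelihood test and a change of at least 2-fold, and all 6 genes were among the 36691 tested. The choice of the 6 used every comparison of stress with control, so that the counts and fold changes in those comparisons are a description. The standard errors (SE) given beside log2 fold changes were not estimated directly by the fit. Each was worked back from the log2 fold change and the F statistic of edgeR's test, and is approximate.

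In salt, 3 of the 6 genes were DE and higher at 6 hr, namely Glyma15g18320, Glyma13g00310 and Glyma02g28860, where 9.66% of all tested genes were DE, 6.49% of all being higher. At 12 hr of salt Glyma15g18320 was still higher, Glyma03g30200 and Glyma11g03850 were DE and lower, and 12.4% of all tested genes were DE, 7.18% higher and 5.18% lower. At 1 hr of salt 0 of the 6 were DE, against 1.60% of all genes, although 2 had an unadjusted p under 0.05 and DESeq2 called 1, Glyma02g28860. In dehydration 0 of the 6 were DE at 1, 6 or 12 hr, where 2.59%, 2.03% and 2.01% of all genes were DE. The numbers with an unadjusted p under 0.05 in dehydration were 0, 3 and 1, and DESeq2 also called 0 of the 6 at each of these times. For counts at an unadjusted p under 0.05 or by DESeq2, no share of all genes is given here or below. Such counts are therefore not read as a result about the genes. The libraries of stress and control did not overlap in 3, 2 and 1 of the 6 genes at the 3 times of dehydration, beside 26.2%, 20.3% and 17.4% of all genes. In salt the numbers were 2, 4 and 4, beside 20.3%, 28.9% and 37.2% of all genes. The median log2 fold change of the 6 was 0.69 at 6 hr of salt and -0.26 at 12 hr of salt, beside -0.03 and -0.04 over all tested genes.

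**Figure D1:**
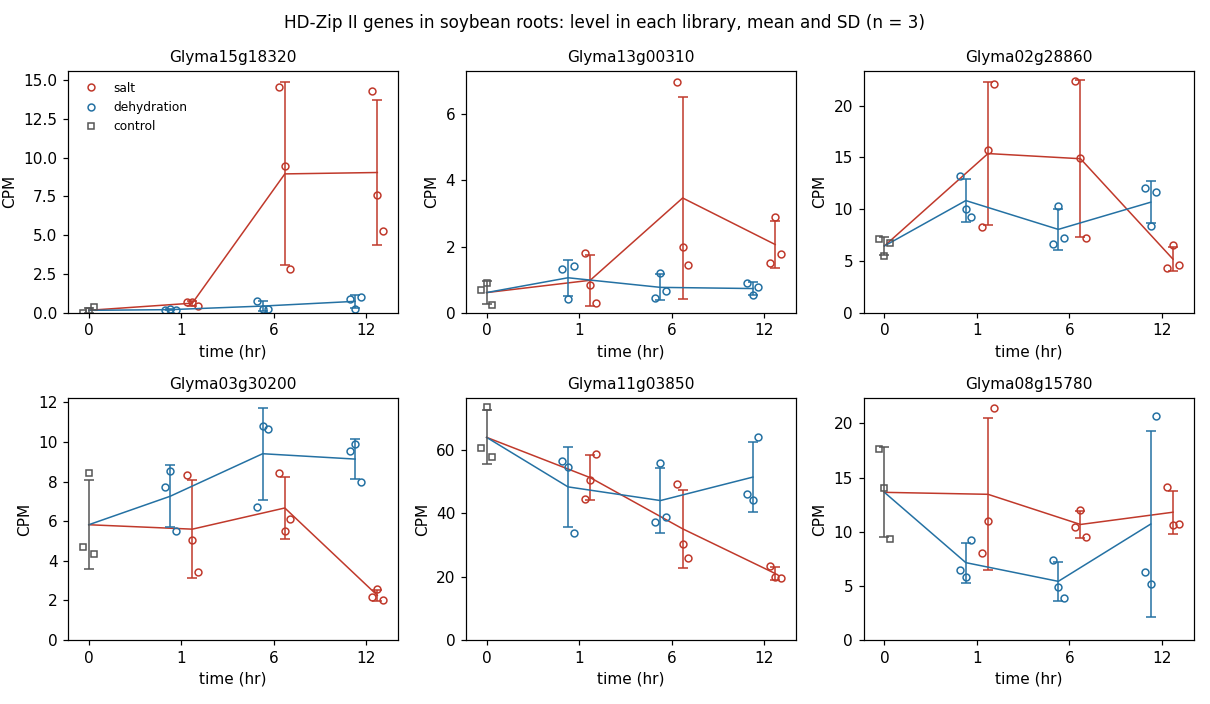
Level of each of the 6 HD-Zip II genes in CPM (vertical axis, own scale in each panel) against time in hr (horizontal axis, evenly spaced steps). Circles are single libraries under salt (red) and dehydration (blue), squares are the control libraries at 0 hr, lines join the means and bars are the SD of 3 libraries. Glyma15g18320 stood at 2.80 to 14.6 CPM at 6 and 12 hr of salt and at most at 1.03 CPM elsewhere, and Glyma11g03850 was lowest at 12 hr of salt, at 19.5 to 23.4 CPM.

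Glyma15g18320 was close to undetected in control roots and was the gene with the largest salt difference among the 6. Its counts in replicates 1, 2 and 3 were 71, 38 and 39 at 6 hr of salt and 66, 71 and 44 at 12 hr of salt, against 0, 1 and 3 in control. At 1 hr of salt the counts were 21, 5 and 3, the 21 in the deepest library. All control libraries were thus at or under 3 counts, the number that a library with a true level of 0.336 to 0.412 CPM would be expected to give at these depths.

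In CPM the same libraries stood at 14.6, 9.48 and 2.80 at 6 hr of salt and 14.3, 7.59 and 5.24 at 12 hr of salt, against 0, 0.114 and 0.336 in control. At 1 hr of salt the libraries held 0.704, 0.702 and 0.428 CPM, all above control. The lowest of these, replicate 3, had 3 counts, as had control replicate 3, so that this gap came from library depth. Every library of each salt time lay above every control library, and those of 6 and 12 hr also lay above every library of 1 hr. The low value at 6 hr of salt came from replicate 3, the second deepest library, and left the 6 hr mean of 8.95 ± 5.91 CPM (SD, n = 3) and the 12 hr mean of 9.04 ± 4.70 CPM well inside each other's spread. The study lists the lowest share of uniquely mapped reads for that library. Its Spearman's rho with replicate 1, 0.886, was the lowest of all replicate pairs.

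Dehydration moved the gene far less. It had 1, 1 and 1 counts at 1 hr, 7, 2 and 2 counts at 6 hr and 6, 1 and 4 counts at 12 hr, or 0.177 to 0.214, 0.241 to 0.772 and 0.260 to 1.03 CPM. Each dehydration time overlapped control in CPM. The order of the group means was salt 12 hr, salt 6 hr, dehydration 12 hr, salt 1 hr, dehydration 6 hr, dehydration 1 hr and control, and the ranges of neighbours overlapped except between salt at 6 hr and dehydration at 12 hr and, at 2 counts or more against 1, between dehydration at 6 and 1 hr.

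Because control held 4 counts in all, ratios of pooled counts scaled by depth are given with 95% intervals that cover counting error only. Salt over control was 4.12 (1.45 to 16.1) at 1 hr, 40.5 (15.5 to 151) at 6 hr and 50.6 (19.4 to 188) at 12 hr. Dehydration over control was 1.20 (0.176 to 7.09) at 1 hr, 2.74 (0.813 to 11.8) at 6 hr and 4.76 (1.41 to 20.5) at 12 hr. The fitted log2 fold changes over control depend on the prior count for this gene. These fold changes were 5.66 (SE 0.77) at 6 hr and 5.69 (SE 0.76) at 12 hr of salt. The SE, being worked back from them, depend on the prior count too.

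Lane moved with the salt groups. All libraries of salt at 1 and 6 hr were run in lane 2, which held no control, so that no within-lane value exists for them. Salt at 12 hr was spread over the 3 lanes, and there Glyma15g18320 had 7.59 CPM in the salt library against 0.336 CPM in the control of lane 3, and 5.24 CPM in the salt library against a mean of 0.0569 CPM in the 2 controls of lane 4. Within lane 2 it averaged 8.95 CPM at 6 hr of salt against 0.611 CPM at 1 hr of salt. When lane was added to the model, the log2 fold change at 6 hr was 4.46 with an adjusted p of 0.140 (edgeR). The gene then no longer counted as DE at that time. That fit joins lane 2 to the controls only through salt at 12 hr replicate 1, so its 6 hr values rest in part on that library. Whether lane accounts for the difference was not tested.

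Glyma13g00310, the early-legume copy of Glyma15g18320, was also low and also highest in salt. It had 34, 8 and 20 counts at 6 hr of salt and 7, 27 and 15 counts at 12 hr of salt, against 5, 8 and 2 counts in control. In CPM these are 6.98, 2.00 and 1.43 at 6 hr and 1.52, 2.89 and 1.79 at 12 hr, against 0.687, 0.911 and 0.224 in control. Both salt times lay wholly above control, and replicate 1 at 6 hr stood well above the other two.

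At 1 hr of salt Glyma13g00310 stood at 1.81, 0.842 and 0.285 CPM, which overlapped control. Dehydration gave 0.427 to 1.42 CPM at 1 hr, 0.441 to 1.20 CPM at 6 hr and 0.520 to 0.894 CPM at 12 hr, overlapping control at every time. In the order of the means only salt at 6 hr (3.47 ± 3.05 CPM) and salt at 12 hr (2.06 ± 0.726 CPM) stood clear of all the groups of dehydration and of control (0.607 ± 0.350 CPM), and these 2 salt times overlapped (SD, n = 3 each). Neither stood clear of salt at 1 hr, whose replicate 1 reached 1.81 CPM. The margin over dehydration was narrow, with 1.43 CPM in salt at 6 hr replicate 3 against 1.42 CPM in dehydration at 1 hr replicate 3.

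The log2 fold change of Glyma13g00310 over control was 2.45 (SE 0.71) at 6 hr and 1.77 (SE 0.71) at 12 hr of salt, the second not DE. The pooled ratio was 4.53 (2.54 to 8.57) at 6 hr, 3.65 (2.01 to 7.01) at 12 hr and 2.35 (1.32 to 4.45) at 1 hr, where 54 of the 62 counts came from the deepest library. The 6 hr call rested on single libraries: without salt at 6 hr replicate 1 the log2 fold change was 1.42 (adjusted p = 0.234, edgeR), and the gene also left the DE list when any 1 control was left out. Within lanes, 12 hr of salt over control was 2.23 in lane 3 and 0.82 in lane 4 on the log2(CPM + 0.5) scale.

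Glyma02g28860 was DE and higher at 6 hr of salt, and not DE at 1 or 12 hr. It had 8.29, 15.7 and 22.1 CPM at 1 hr of salt, 22.4, 15.0 and 7.24 CPM at 6 hr and 4.33, 6.52 and 4.64 CPM at 12 hr, against 7.15, 5.46 and 6.71 CPM in control. All libraries at 1 and 6 hr of salt lay above control, the lowest at 6 hr, replicate 3, by a small margin. Those at 12 hr overlapped control and lay wholly below both earlier salt times.

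In dehydration Glyma02g28860 had 13.2, 10.04 and 9.23 CPM at 1 hr, 6.61, 10.3 and 7.16 CPM at 6 hr and 12.1, 8.32 and 11.6 CPM at 12 hr. The libraries of 1 and 12 hr lay above control and those of 6 hr overlapped it. From high to low the means were 15.4 ± 6.91 CPM at salt 1 hr, 14.9 ± 7.57 at salt 6 hr, 10.8 ± 2.10 at dehydration 1 hr, 10.7 ± 2.05 at dehydration 12 hr, 8.04 ± 2.01 at dehydration 6 hr, 6.44 ± 0.875 in control and 5.17 ± 1.18 at salt 12 hr (SD, n = 3 each). The range of each group overlapped that of the next in this order.

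Against control the log2 fold change of Glyma02g28860 was 1.24 (SE 0.37) at 1 hr, 1.18 (SE 0.38) at 6 hr and -0.30 (SE 0.38) at 12 hr of salt. Of the 6, it was the gene closest to the threshold from inside, with an adjusted p of 0.0455 at 6 hr, and of those past 2-fold Glyma19g33100 was the HD-Zip II gene closest from outside, with a log2 fold change of 1.21 (SE 0.46) and an adjusted p of 0.0897 at 6 hr of salt (edgeR). The call at 6 hr was kept in only 5 of the 21 fits that left out 1 library, those without dehydration at 6 hr replicate 1 or 2, salt at 1 hr replicate 1 or 3, or salt at 6 hr replicate 3. Without salt at 6 hr replicate 1, the value was lowest, at 0.73 (adjusted p = 0.268, edgeR), and with lane as a term it was 1.49 (adjusted p = 0.448, edgeR).

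Glyma03g30200 was DE and lower at 12 hr of salt and at no other time or stress. It stood at 2.17, 2.57 and 2.02 CPM there, against 4.67, 8.42 and 4.36 CPM in control, with no overlap. At 1 hr of salt it had 8.32, 5.05 and 3.42 CPM and at 6 hr 8.42, 5.49 and 6.09 CPM, both across the control range.

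Dehydration gave Glyma03g30200 7.73, 8.54 and 5.50 CPM at 1 hr, 6.72, 10.8 and 10.7 CPM at 6 hr and 9.54, 9.88 and 8.001 CPM at 12 hr. These overlapped control at each time, through control replicate 2 in every case. The means ran from 9.41 ± 2.33 CPM at dehydration 6 hr through 9.14 ± 1.00 at dehydration 12 hr, 7.26 ± 1.58 at dehydration 1 hr, 6.67 ± 1.55 at salt 6 hr, 5.82 ± 2.26 in control and 5.60 ± 2.49 at salt 1 hr down to 2.25 ± 0.281 at salt 12 hr (SD, n = 3 each), and only the last step was free of overlap.

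The log2 fold change of Glyma03g30200 at 12 hr of salt was -1.36 (SE 0.35), and the gene left the DE list without control replicate 2 (-0.99, adjusted p = 0.0820, edgeR), without salt at 12 hr replicate 3, or with lane as a term (-1.27, adjusted p = 0.0681, edgeR). Within lanes, 12 hr of salt minus control was -0.67 in lane 3 and -1.43 in lane 4 on the log2(CPM + 0.5) scale. In dehydration its values were 0.31 (SE 0.33), 0.69 (SE 0.32) and 0.65 (SE 0.33) at 1, 6 and 12 hr.

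Glyma11g03850 had the most counts of the 6, 7460 over all libraries, and the smallest spread between replicates in the fit (biological coefficient of variation 0.219, against 0.269 to 0.518 for the other 5). It had 23.4, 19.99 and 19.5 CPM at 12 hr of salt, against 60.5, 73.7 and 57.7 CPM in control. At 6 hr of salt it had 49.1, 30.2 and 26.0 CPM, also wholly below control, and at 1 hr of salt 44.6, 50.4 and 58.7 CPM, which overlapped control. Salt at 12 hr lay below every other library of the series.

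In dehydration Glyma11g03850 stood at 56.6, 54.7 and 33.7 CPM at 1 hr, 37.3, 55.8 and 38.9 CPM at 6 hr and 46.0, 44.2 and 64.0 CPM at 12 hr. The first 2 times lay below control by a narrow margin and the third overlapped it. Control had the highest mean (64.0 ± 8.50 CPM), followed by dehydration 12 hr (51.4 ± 10.9), salt 1 hr (51.3 ± 7.07), dehydration 1 hr (48.3 ± 12.7), dehydration 6 hr (44.0 ± 10.3), salt 6 hr (35.1 ± 12.3) and salt 12 hr (20.97 ± 2.11; SD, n = 3 each). Neighbours overlapped in this order except salt at 6 and 12 hr.

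Against control, the log2 fold change of Glyma11g03850 was -0.32 (SE 0.24) at 1 hr, -0.87 (SE 0.25) at 6 hr and -1.61 (SE 0.25) at 12 hr of salt. The 6 hr value is under 2-fold, and without salt at 6 hr replicate 1 it was -1.22 and the gene became DE (adjusted p = 0.0105, edgeR). The call at 12 hr was kept in all 9 alternatives and all 21 fits that left out 1 library. These fits reuse the libraries that chose the gene, and most left-out libraries belonged to neither group compared. Within lanes, 12 hr of salt minus control was -1.51 in lane 3 and -1.75 in lane 4.

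Glyma08g15780 entered through dehydration. At 6 hr of dehydration it stood at 7.39, 4.93 and 3.91 CPM and at 1 hr at 6.41, 5.77 and 9.23 CPM, against 17.6, 14.0 and 9.29 CPM in control. Both times lay below control, at 1 hr by 9.23 CPM in the highest stressed library against 9.29 CPM in control replicate 3. At 12 hr of dehydration it had 6.26, 5.20 and 20.6 CPM, with 2 libraries below control and replicate 3 above it.

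In salt Glyma08g15780 had 8.02, 10.9 and 21.4 CPM at 1 hr, 10.5, 12.0 and 9.54 CPM at 6 hr and 14.1, 10.6 and 10.7 CPM at 12 hr, and every salt time overlapped control. The means were 13.6 ± 4.17 CPM in control, 13.4 ± 7.02 at salt 1 hr, 11.8 ± 1.98 at salt 12 hr, 10.7 ± 8.63 at dehydration 12 hr, 10.7 ± 1.23 at salt 6 hr, 7.14 ± 1.84 at dehydration 1 hr and 5.41 ± 1.79 at dehydration 6 hr (SD, n = 3 each). Only the step between salt at 6 hr and dehydration at 1 hr was free of overlap between neighbours.

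Against control the log2 fold change of Glyma08g15780 was -0.92 (SE 0.45) at 1 hr, -1.32 (SE 0.45) at 6 hr and -0.36 (SE 0.44) at 12 hr of dehydration. By edgeR's test the gene was outside the DE threshold at 6 hr, with an adjusted p of 0.142, and DESeq2 gave 0.0702. Without dehydration at 12 hr replicate 3 the 12 hr value was -1.24 and the gene was still not DE (adjusted p = 0.168, edgeR). Within lanes the difference at 6 hr was -0.58 in lane 3 and -1.88 in lane 4 on the log2(CPM + 0.5) scale.

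**Figure D2:**
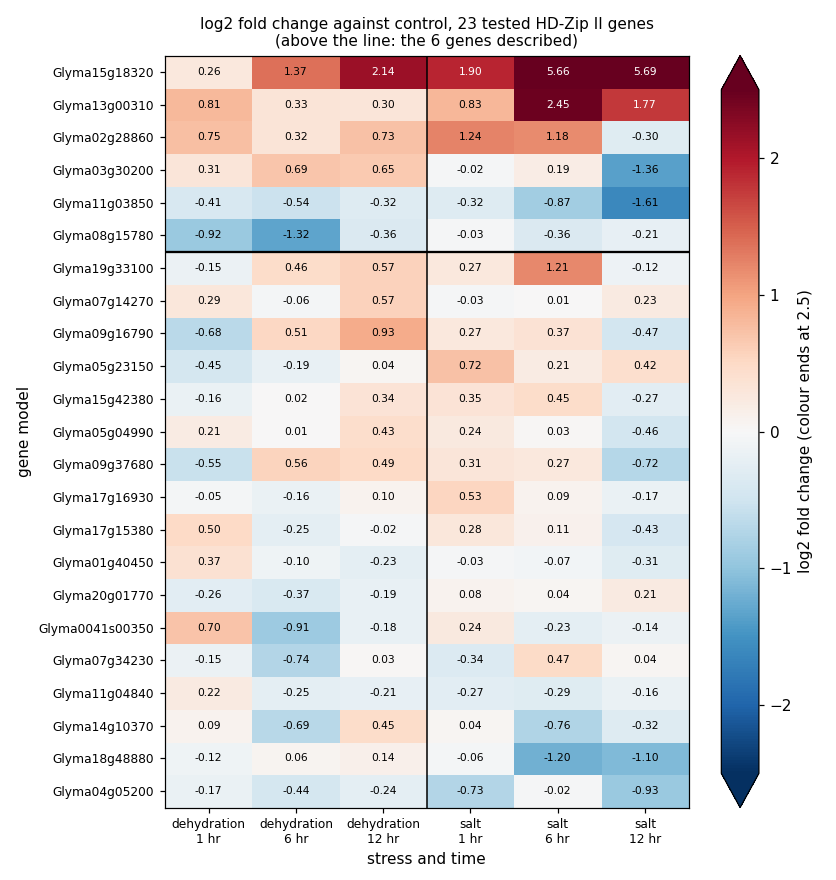
Log2 fold change against control (colour and printed value) of the 23 HD-Zip II genes that passed the filter on low counts, 1 row a gene, with the 6 genes described above the line and the other 17 below it, ordered by their mean, and 1 column for each stress and time in hr. Values of 5.66 and 5.69 for Glyma15g18320 at 6 and 12 hr of salt lie past the end of the colour scale, and the other 17 listed genes ran from -1.20 to 1.21.

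Salt and dehydration were then set against each other at equal times, which uses no control library. These differences involve the libraries that chose the genes, and are likewise a description. At 6 hr, salt over dehydration was 4.29 (SE 0.67) on the log2 scale for Glyma15g18320 and 2.13 (SE 0.69) for Glyma13g00310, and these 2 of the 6 were DE, against 14.7% of all tested genes. Without salt at 6 hr replicate 1 the value for Glyma13g00310 was 1.09 and the gene was not DE, nor was it without dehydration at 6 hr replicate 1 or 3.

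At 12 hr, 3 of the 6 were DE between the stresses, against 11.6% of all tested genes. Salt over dehydration was 3.55 (SE 0.67) for Glyma15g18320, -2.01 (SE 0.36) for Glyma03g30200 and -1.30 (SE 0.25) for Glyma11g03850. The libraries of the 2 stresses did not overlap in these 3 genes, nor in Glyma13g00310 and Glyma02g28860, where 35.0% of all genes had no overlap at 12 hr. At 6 hr 3 of the 6 had none, beside 36.2% of all genes. Glyma03g30200 averaged 2.25 CPM in salt, below its control mean, and 9.14 CPM in dehydration, above it.

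Glyma02g28860 changed order between the times, with salt over dehydration at 0.86 (SE 0.37) at 6 hr and -1.04 (SE 0.39) at 12 hr, neither DE. For Glyma08g15780 the difference was 0.89 (SE 0.45) at 1 hr, 0.96 (SE 0.45) at 6 hr and 0.15 (SE 0.45) at 12 hr, none DE. At 1 hr 0 of the 6 were DE by edgeR or DESeq2 and 0 had an unadjusted p under 0.05, and edgeR called 0% of all genes there.

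**Figure D3:**
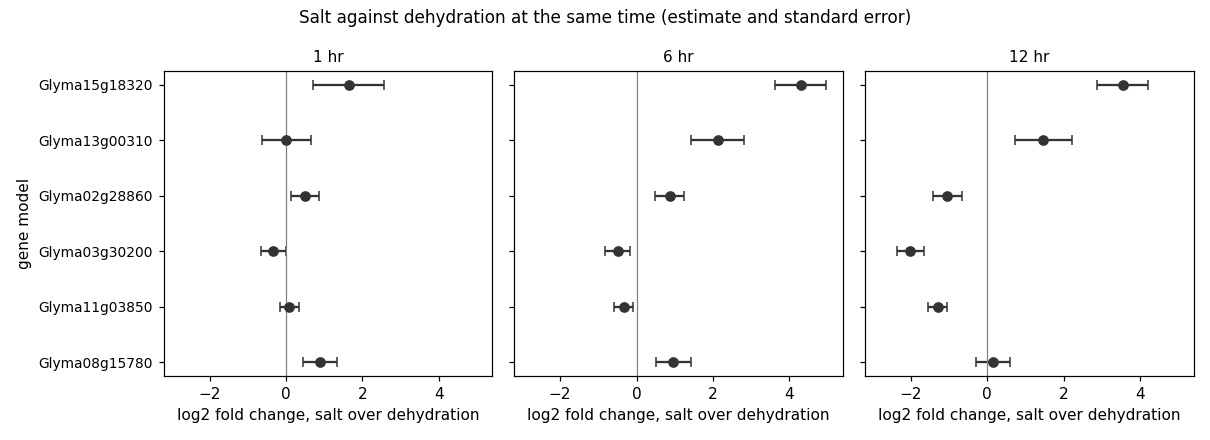
Log2 fold change of salt over dehydration (horizontal axis) for the 6 genes (vertical axis) at 1, 6 and 12 hr, points with SE bars. The SE were worked back from edgeR's F statistic. Glyma15g18320 lay at 4.29 and 3.55 at 6 and 12 hr, and Glyma03g30200 and Glyma11g03850 at -2.01 and -1.30 at 12 hr.

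Later times were also compared with earlier ones within the stress through which a gene had not entered. These libraries belong to the groups used in the choice, so that the values are a description too. For the 5 genes chosen through salt, 6 hr of dehydration against 1 hr gave log2 fold changes between -0.48 and 1.11, and 0 of the 5 were DE, where 4.03% of all genes were. The highest value was that of Glyma15g18320, with an SE of 1.00. Between 12 and 6 hr of dehydration the 5 genes ran from -0.04 to 0.77, 0 were DE, and 0.0436% of all genes were. In both comparisons 0 of the 5 had an unadjusted p under 0.05 and DESeq2 called 0.

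For Glyma08g15780, 6 hr of salt against 1 hr gave -0.33 (SE 0.44) and 12 hr against 6 hr gave 0.15 (SE 0.44), neither DE. Of all genes 6.61% and 0.144% were DE in these comparisons. With such errors a change of 2-fold within a course was not resolved for Glyma15g18320, and these values do not show that the genes stayed level.

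Within salt, whose libraries chose 5 of the genes, the courses differed in shape. Glyma15g18320 was 3.77 (SE 0.63) higher on the log2 scale at 6 hr than at 1 hr and 0.03 (SE 0.54) higher at 12 hr than at 6 hr. Between 12 and 6 hr Glyma03g30200 stood at -1.55 (SE 0.35), Glyma02g28860 at -1.49 (SE 0.38) and Glyma11g03850 at -0.74 (SE 0.25), none DE by edgeR, while DESeq2 called 2 of the 6. All 3 had every library of 12 hr below every library of 6 hr, which held for 8.90% of all genes. In lane 2, where the 6 hr libraries and 1 library of 12 hr were run, 12 hr minus 6 hr was -1.41 for Glyma03g30200 and -1.53 for Glyma02g28860 on the log2(CPM + 0.5) scale.

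For 5 of the 6 genes the study listed a homoeologous partner, and Glyma11g03850 had none listed. The share of a pair's reads that fell on the chosen copy was followed across groups, which compares both copies within 1 library. Reads that matched both copies equally were not counted, so that the shares depend on how much unique sequence each copy has, and only their differences between groups are described. Each chosen copy was selected on these same libraries, so that a change in its share follows in part from the choice and is a description. Other homoeologous pairs were not compared in this way.

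The pair Glyma03g30200 and Glyma19g33100 differed from control in its shares at 12 hr of salt. Glyma03g30200 took 35.7%, 36.9% and 28.3% of the pair's reads at 12 hr of salt, against 48.6%, 58.7% and 53.4% in control, with no overlap. It took 53.7%, 52.9% and 36.9% at 1 hr of salt and 26.6%, 44.9% and 57.0% at 6 hr, both overlapping control. Glyma19g33100 itself stood at 3.90, 4.38 and 5.12 CPM at 12 hr of salt against 4.95, 5.92 and 3.80 CPM in control. At 6 hr of salt Glyma19g33100 had 23.2, 6.74 and 4.59 CPM, with replicate 1 far above the rest, and a log2 fold change of 1.21. It became DE (1.62, adjusted p = 0.0160, edgeR) when salt at 6 hr replicate 3 was left out.

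Glyma02g28860 took 59.3%, 51.6% and 58.4% of the reads it shared with Glyma09g16790 at 1 hr of dehydration, against 27.1%, 31.2% and 43.5% in control. At 1 hr of dehydration Glyma09g16790 averaged 8.34 CPM, against 13.3 CPM in control, with overlap. The share of Glyma02g28860 was back at 26.2% to 33.3% at 6 hr of dehydration, and was 21.5% to 45.3% at 12 hr. In salt it was 41.8% to 56.0% at 1 hr, 37.8% to 49.6% at 6 hr and 28.2% to 48.4% at 12 hr, each overlapping control. Glyma09g16790 was highest at 12 hr of dehydration, at 14.6, 19.8 and 42.3 CPM, against 19.2, 12.1 and 8.73 CPM in control. At 12 hr, salt over dehydration was -1.40 for Glyma09g16790 (SE 0.42, adjusted p = 0.0322, edgeR), with 3 of 3 libraries lower, and -0.81 (adjusted p = 0.179, edgeR) without dehydration at 12 hr replicate 3. It was also not DE without any 1 of the salt libraries at 12 hr.

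Of the reads on Glyma08g15780 and Glyma15g42380, the first took 39.1%, 35.5% and 40.0% at 1 hr of dehydration, 37.4%, 23.03% and 27.8% at 6 hr and 35.9%, 42.6% and 40.0% at 12 hr, against 47.1%, 57.2% and 52.5% in control. All dehydration libraries lay below all control libraries. Replicate 3 at 12 hr, which was high for Glyma08g15780 itself, was also high for Glyma15g42380, at 31.0 CPM, and so did not stand apart in the share. Glyma15g42380 had a log2 fold change of 0.02 (SE 0.41) at 6 hr of dehydration, beside -1.32 for Glyma08g15780. In salt the share overlapped control at each time.

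For Glyma13g00310 and Glyma17g06380 the counts were too few for a comparison of shares, with 10 counts of Glyma17g06380 over the 3 controls. Glyma17g06380 did not pass the filter on low counts, and had 2.67, 0.499 and 0.502 CPM at 6 hr and 1.95, 1.07 and 1.19 CPM at 12 hr of salt, against 0.137, 0.797 and 0.224 CPM in control. The partner of Glyma15g18320, Glyma09g07050, is not in the study's list of HD-Zip genes. It had 0 counts in control and at 1 and 6 hr of dehydration, 5 in all at 6 hr of salt and 11 at 12 hr of salt. Glyma15g18320 took 96.7% and 94.3% of the pair's pooled reads at these salt times, against 100% of 4 counts in control. With so few counts in control, no difference in share can be read.

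**Figure D4:**
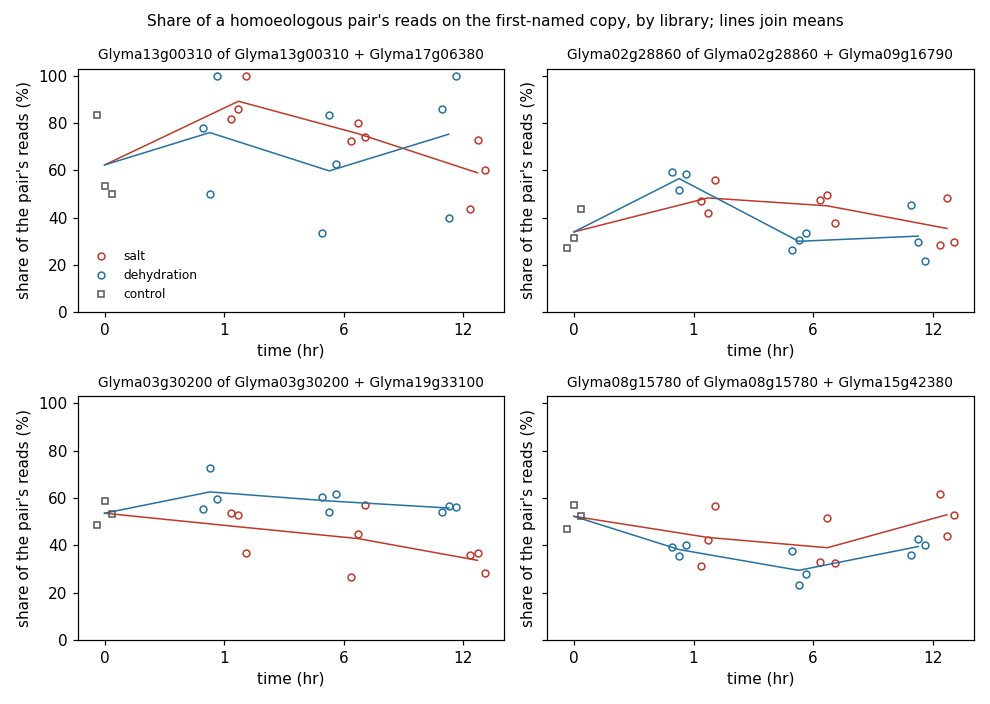
Share (%) of a homoeologous pair's reads that fell on the chosen copy (vertical axis) against time in hr (horizontal axis, evenly spaced steps) for 4 pairs. Circles are single libraries under salt (red) and dehydration (blue), squares are control libraries and lines join means. The share of Glyma03g30200 was 28.3% to 36.9% at 12 hr of salt against 48.6% to 58.7% in control, and that of Glyma08g15780 was 23.03% to 37.4% at 6 hr of dehydration against 47.1% to 57.2% in control.

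Of the other 18 HD-Zip II genes in the study's list, 17 were tested, the exception being Glyma17g06380. They are by choice those that had not changed, and edgeR called 0 of them against control at any time, as did DESeq2. At 1, 6 and 12 hr, an unadjusted p under 0.05 was found for 1, 2 and 2 of the 17 in dehydration, and for 1, 2 and 1 in salt. Among these 17 only Glyma19g33100 combined it with a 2-fold change. Glyma03g26700, given as the homoeolog of Glyma07g14270 but not in the list of HD-Zip genes, is not among the 17, and had a log2 fold change of 1.30 (SE 0.58, adjusted p = 0.211, edgeR) at 1 hr of dehydration. The medians of the 17 were -0.12, -0.16 and 0.10 in dehydration and 0.24, 0.04 and -0.27 in salt, on the log2 scale. At 12 hr of salt 13 of the 17 lay below their control level, where the median over all tested genes was -0.04. At that time 2 of the 17 had no overlap with control, beside 37.2% of all genes.

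Between the stresses, 1 of the 17 was DE at 6 hr and 1 at 12 hr, beside 14.7% and 11.6% of all tested genes. Glyma07g34230 had 10.5, 6.74 and 5.88 CPM at 6 hr of salt, against 2.87, 3.25 and 3.78 CPM at 6 hr of dehydration, a log2 difference of 1.21 (SE 0.34, adjusted p = 0.0167, edgeR) with 3 of 3 libraries higher. Without salt at 6 hr replicate 1 it was 0.90 (adjusted p = 0.103, edgeR), and Glyma07g34230 was also not DE without dehydration at 6 hr replicate 1 or 2. The gene at 12 hr was Glyma09g16790. At 12 hr 7 of the 17 had every salt library below every dehydration library, which was so for 16.4% of all genes.

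Over the 21 libraries the levels of the 6 genes were compared on the log2(CPM + 1) scale, as a description, since the libraries share groups and lanes. Glyma15g18320 and Glyma13g00310 had the highest correlation (Pearson's r = 0.75, Spearman's rho = 0.54), and Glyma15g18320 and Glyma11g03850 the lowest r (r = -0.67, rho = -0.58). Glyma03g30200 and Glyma11g03850, both lowest at 12 hr of salt, had r = 0.59 and rho = 0.31. Glyma02g28860 had an r between -0.01 and 0.43 with the other 5.

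Among 35622 tested genes with a mean of at least 1 CPM, the most similar to Glyma15g18320 were Glyma11g06750 (r = 0.98), Glyma02g43830 (r = 0.98) and Glyma15g17120 (r = 0.98). Glyma11g06750 averaged 16.4 and 17.6 CPM at 6 and 12 hr of salt, against 0.227 CPM in control. For the other 5 genes the highest r was lower, at 0.89 for Glyma13g00310 with Glyma13g42170, 0.89 for Glyma03g30200 with Glyma01g35470, 0.88 for Glyma08g15780 with Glyma17g37660, 0.86 for Glyma11g03850 with Glyma05g01330 and 0.85 for Glyma02g28860 with Glyma18g49000. Glyma01g35470 averaged 0.744 CPM at 12 hr of salt against 2.18 CPM in control, and Glyma17g37660 averaged 20.7 CPM at 6 hr of dehydration against 47.4 CPM in control.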

How the data were processed

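Root mRNA of 21 libraries was sequenced by the authors as single-end reads of 50 bases, aligned with GSNAP allowing 4 mismatches, and uniquely mapped reads were counted per gene model. The counting program and its use of strand are not given in the sources used here, so overlapping genes and near-identical copies are uncertain. The authors deposited raw counts, without normalization, and a normalized signal, in which DESeq 1.7.10 divided each count by 1 size factor per library.

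The 6 genes and all gene lists were chosen with earlier results of these data known. Raw counts were tested in R 4.3.3 with edgeR 4.0.16: filterByExpr by group, TMM, and glmQLFit (robust) with 7 groups and no covariate. Adjusted p-values are Benjamini-Hochberg values over the 36691 genes kept. CPM used TMM-scaled totals. The replicates' origin beyond the labels is unknown. The p-values of edgeR set a difference against the spread between these libraries within groups. That spread was estimated over all 7 groups with information shared across genes. Intervals and floors (3 counts) cover counting error only. Named genes were the 6, their listed partners, other HD-Zip II genes with an unadjusted p under 0.05 and a 2-fold change against control, and for each of the 6 the 3 tested genes of highest Pearson correlation, of which the first is given for most. Glyma07g34230 and Glyma09g16790 between the stresses, and Glyma03g26700, were named after their values were seen. Alternatives were DESeq2 1.42.0, its size factors, limma 3.58.1 on log2 of the normalized signal plus 1 or 0.1, other filters, no fold limit, only the groups compared, lane or replicate number as a term, and each library left out. The script was tested on simulated data. Of the reference identifiers, 0 matched the gene models.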

Additional observations from a re-analysis of the deposited data

Results flagged for a closer look

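Effects that differed between the 2 stresses, or between 2 times of salt, were singled out where edgeR's test of the difference itself called them. For the 6 chosen genes these differences are descriptions, because the choice used the same libraries. On the log2 scale, salt over dehydration at 6 hr was 4.29 for Glyma15g18320, 2.13 for Glyma13g00310 and 1.21 for Glyma07g34230. At 12 hr it was 3.55 for Glyma15g18320, -2.01 for Glyma03g30200, -1.30 for Glyma11g03850 and -1.40 for Glyma09g16790. Glyma15g18320 was also 3.77 higher at 6 hr of salt than at 1 hr of salt. All salt libraries at 6 hr were run in lane 2 and all dehydration libraries in lanes 3 and 4. Lane and stress therefore cannot be told apart within a lane at 6 hr. A fit with lane as a term joins lane 2 to the other lanes only through salt at 12 hr replicate 1. At 12 hr lane 4 held 1 salt and 3 dehydration libraries, and there salt minus dehydration was 2.29 for Glyma15g18320, -1.93 for Glyma03g30200 and -1.35 for Glyma11g03850 on the log2(CPM + 0.5) scale. In a fit with lane as a term the adjusted p at 6 hr was 0.157 for Glyma15g18320, 0.323 for Glyma13g00310 and 0.308 for Glyma07g34230, and at 12 hr 0.0540 for Glyma15g18320, 0.0356 for Glyma03g30200, 0.0302 for Glyma11g03850 and 0.142 for Glyma09g16790 (edgeR).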

How the results depend on the processing

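At 6 hr of salt the number of the 6 genes that were DE was 3, and it was 1 when only the groups compared were fitted, 0 with lane as a term, 1 with limma on log2 of the normalized signal plus 0.1, and 1 to 3 when each library was left out. At 1 hr of salt it was 0, and 1 by DESeq2 (Glyma02g28860), with 0 to 1 when each library was left out (1 without salt at 1 hr replicate 1 or salt at 6 hr replicate 3). At 12 hr of salt it was 2 to 3 in every fit, and in dehydration 0 in every fit. Of the other HD-Zip II genes 0 were DE, and 0 to 1 when each library was left out. Glyma08g15780 at 6 hr against 1 hr of salt was -0.33, and ran from -0.64 to 0.16 when each library was left out, the positive value without salt at 1 hr replicate 3. With lane as a term, the log2 fold changes of Glyma15g18320, Glyma13g00310 and Glyma02g28860 at 6 hr of salt were 4.46, 3.11 and 1.49. Without it they were 5.66, 2.45 and 1.18. That fit joins lane 2 to the controls only through salt at 12 hr replicate 1. The causes were not tested. Same-numbered libraries deviated together in 2 of 18 pairs (correlation over 0.1, range -0.40 to 0.31), so the numbers were not taken to pair them. With the replicate number as a block, 2 genes were DE at 6 hr of salt (Glyma02g28860 had an adjusted p of 0.0730, edgeR) and 3 at 12 hr. Of 316 log2 fold changes of the 6 genes against control under alternatives other than left-out libraries, 311 moved by less than the SD between replicates, as did 750 of 756 with 1 library left out. The sign changed in 5 and 13 of these values, and 0 of them belonged to a comparison in which the gene was DE. Most left-out libraries belonged to neither group of a comparison, so that most of the 756 values could hardly move. The SD of single libraries is wide for genes with few counts, and these numbers do not show that the calls were stable. The few counts of Glyma15g18320 in control limit its log2 fold change. At 12 hr of salt it was 5.69 with all libraries and 6.85 without control replicate 3.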
